A study of Mus musculus with 15 samples.

Results

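The HoxD cluster genes are the 9 Hox genes of the mouse HoxD cluster, Hoxd1, Hoxd3, Hoxd4, Hoxd8, Hoxd9, Hoxd10, Hoxd11, Hoxd12 and Hoxd13, taken by gene name from a table of 56092 named genes. Hox genes encode homeodomain transcription factors that give cells their position along the body axis. In the embryo the genes of a cluster are switched on in the order in which they lie, from the 3′ end (Hoxd1) to the 5′ end (Hoxd13), and the genes near the 5′ end serve the tail end of the trunk, the limbs and the genitalia. Neuromesodermal progenitors (NMPs), the cells of the caudal embryo that supply both spinal cord and paraxial mesoderm, pass through this sequence under WNT and FGF signalling, and Hox levels are a common readout of how far along the axis such cells stand.

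RNA came from sorted STR-KI cells, mouse embryonic stem cells of genotype Sox2::mCherry/WT, Tbxt::GFP/WT, in which the reporters mark Sox2, a neural and progenitor gene, and Tbxt, the gene of Brachyury. All groups share this line and the same induction, 48 h in 10 ng/mL FGF2 and then 24 h in FGF2 with 5 µM CHIRON99021 (CHIR), an activator of WNT signalling. NMPs were sorted at that point as positive for both reporters (3 libraries). NMPs that stayed another 48 h in FGF2 and CHIR (FGF/CHIR) gave Tbxt 48 h cells (2 libraries), sorted for Tbxt::GFP, and Sox2 48 h cells (2 libraries), sorted for Sox2::mCherry. Tbxt 7 d cells (3 libraries) came from Tbxt::GFP-positive cells kept 7 d in FGF/CHIR and sorted as double negative (DN), that is, without either reporter. Sox2::mCherry-positive cells spent 7 d either in FGF/CHIR or with FGF as the sole factor, and their DN and Sox2::mCherry-positive (Sox2+) fractions were sorted, which gave FGF/CHIR DN (1 library), FGF/CHIR Sox2+ (1 library), FGF DN (1 library) and FGF Sox2+ (2 libraries). The labels do not say on which day the cells replated for 7 d had been sorted, nor whether libraries of a group came from separate cultures, so p-values measure only the spread between libraries. Groups with 1 library have no replicate check, and a test on them borrows the spread of the other groups.

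Levels are counts per 1000000 (CPM). Depth was 3.43 to 9.88 M reads (M, 1000000) in 14 libraries, where 3 reads, taken as the floor, equal 0.304 to 0.874 CPM. FGF Sox2+ library 2 held 0.799 M reads, and 3 reads there equal 3.76 CPM, so its low HoxD values are 0 to a few reads. These floors cover counting error only. The reporter genes were high in the sorted groups: Sox2 reached 163.97 to 241 CPM in NMPs, 217 to 221 CPM in Sox2 48 h cells and 388 to 390.2 CPM in FGF Sox2+ cells, and Tbxt (listed as T) 284 to 445 CPM in NMPs and 216 to 222 CPM in Tbxt 48 h cells. In the double-negative sorts Sox2 and T had at most 1.46 and 2.11 CPM in Tbxt 7 d cells and 5.03 and 1.14 CPM in FGF/CHIR DN, but 29.1 and 20.4 CPM in FGF DN, well over the floor and with T above every other 7 d library. The markers of presomitic mesoderm summed to 566 to 664 CPM in Tbxt 48 h cells, against 57.4 to 67.1 CPM in Sox2 48 h cells. Mesenchyme markers summed to 6575 to 8102 CPM in Tbxt 7 d cells, 2351 CPM in FGF/CHIR DN, 537 CPM in FGF/CHIR Sox2+, 399.8 CPM in FGF DN and 86.2 to 449 CPM in FGF Sox2+. The endoderm markers stood apart in the DN sorts of Sox2-derived cells, at 187 CPM in FGF/CHIR DN and 1164 CPM in FGF DN, against at most 15.02 CPM in every other library. In bulk samples, fewer cells of a type and less RNA per cell cannot be told apart, which holds for each level and change given here.

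**Figure D1:**
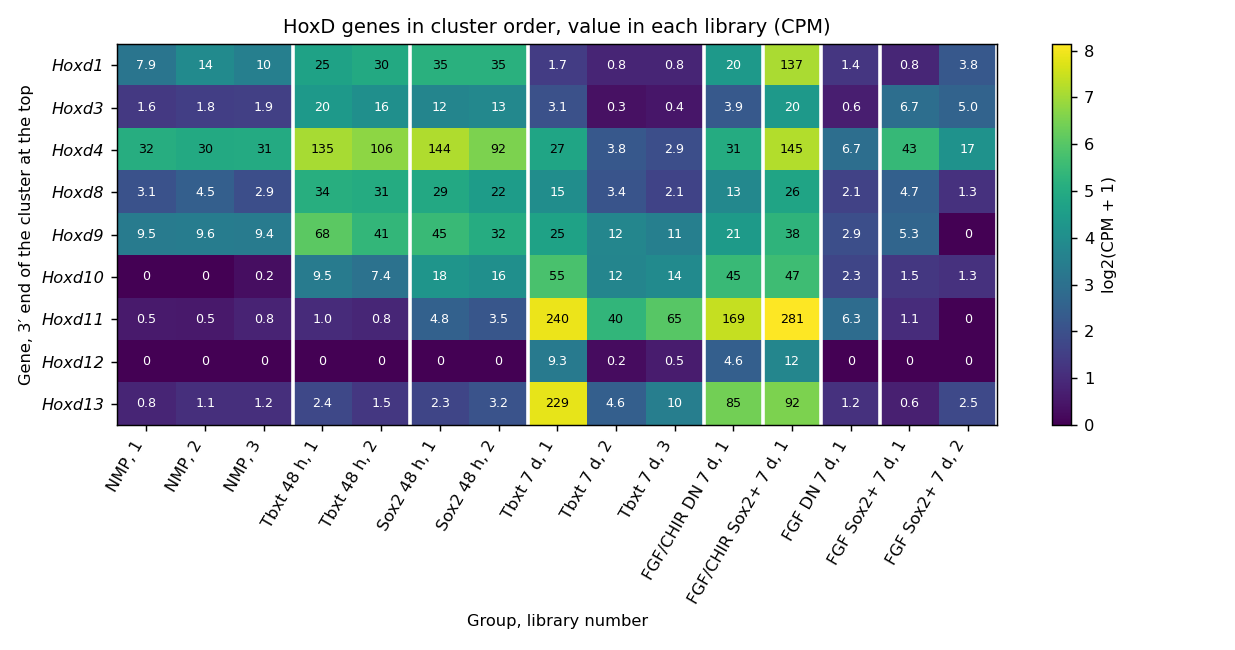
Level of the 9 HoxD genes (rows, 3′ end of the cluster at the top) in each of the 15 libraries (columns, by group and library number), coloured by log2(CPM + 1) and printed in CPM. Hoxd1 to Hoxd9 are brightest in the 48 h groups and in FGF/CHIR Sox2+ cells. Hoxd10 to Hoxd13 are brightest in FGF/CHIR DN, FGF/CHIR Sox2+ and Tbxt 7 d library 1. Tbxt 7 d libraries 2 and 3 are dimmer there, and at Hoxd10 lie below both Sox2 48 h libraries. Both FGF groups are dark from Hoxd8 to Hoxd13.

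The groups compared first were the 48 h cells and the NMPs. The genes called higher at 48 h lay between Hoxd1 and Hoxd10, and no gene beyond Hoxd10 was called. Of the 9 HoxD genes, 5 were higher in Tbxt 48 h cells (Hoxd1, Hoxd3, Hoxd8, Hoxd9 and Hoxd10) where 7.82% of the 12943 tested genes were higher, and 4 were higher in Sox2 48 h cells (Hoxd1, Hoxd3, Hoxd8 and Hoxd10) where 2.65% were. None was lower in either comparison, while 10.5% of tested genes were lower in Tbxt 48 h cells and 5.27% in Sox2 48 h cells (18.4% and 7.92% called in all). The pluripotency markers moved as well: they summed to 3.09 and 4.56 CPM in Tbxt 48 h cells and to 12.4 and 12.1 CPM in Sox2 48 h cells, against 141 to 213 CPM in NMPs. Of these 4 markers 4 were lower in Tbxt 48 h cells, with Nanog at 0, and 3 in Sox2 48 h cells, and their part in the HoxD changes was not tested. The median log2 fold change of the 9 genes was 1.92 for Tbxt 48 h cells and 1.86 for Sox2 48 h cells over NMPs, beside medians of -0.02 and -0.01 over all tested genes. Here and below, a call is an adjusted p under 0.05 in a limma fit of all 15 libraries on log2(CPM + 1), a log2 fold change is on that scale and so understates changes of low genes, and ± after a fold change is its SE.

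Hoxd1, which patterns sensory neuron circuits in the mouse, had 24.8 and 30.0 CPM in Tbxt 48 h cells and 34.6 and 34.7 CPM in Sox2 48 h cells, against 7.91, 13.99 and 10.3 CPM in NMPs. Every 48 h library lay above every NMP library. The log2 fold changes were 1.30 ± 0.36 (adjusted p = 0.0259) for Tbxt 48 h cells and 1.64 ± 0.36 (adjusted p = 0.0148) for Sox2 48 h cells. Hoxd3, needed for the uppermost neck vertebrae, had 19.99 and 15.7 CPM in Tbxt 48 h cells and 11.99 and 13.03 CPM in Sox2 48 h cells, against 1.56, 1.85 and 1.92 CPM in NMPs. Its groups were also apart, with log2 fold changes of 2.76 ± 0.42 (adjusted p = 0.000704) and 2.29 ± 0.42 (adjusted p = 0.00455). Hoxd4, a gene of the hindbrain and neck, had 135 and 106 CPM in Tbxt 48 h cells and 144 and 91.7 CPM in Sox2 48 h cells, against 32.5, 29.6 and 30.7 CPM in NMPs. Those ranges did not overlap either, but neither fold change was called (1.92 ± 0.74, adjusted p = 0.106, and 1.86 ± 0.74, adjusted p = 0.188).

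Hoxd8, a trunk gene, had 33.5 and 31.4 CPM in Tbxt 48 h cells and 29.0 and 21.7 CPM in Sox2 48 h cells, against 3.11, 4.503 and 2.90 CPM in NMPs. The log2 fold changes were 2.91 ± 0.58 (adjusted p = 0.00605) and 2.55 ± 0.58 (adjusted p = 0.0214). Hoxd9, which acts in the lumbar and sacral trunk and the hindlimb, had 67.7 and 40.5 CPM in Tbxt 48 h cells and 44.9 and 32.2 CPM in Sox2 48 h cells, against 9.46, 9.65 and 9.40 CPM in NMPs. It was called in Tbxt 48 h cells (2.35 ± 0.63, adjusted p = 0.0267) and not in Sox2 48 h cells (1.89 ± 0.63, adjusted p = 0.102). Both comparisons share the NMP libraries, and the populations are set against each other below. Hoxd10, which specifies lumbar motor neurons, had 9.47 and 7.43 CPM in Tbxt 48 h cells and 17.8 and 15.8 CPM in Sox2 48 h cells, against 0, 0 and 0.232 CPM in NMPs, that is, 2 reads in all 3 NMP libraries together. Every 48 h library lay above every NMP library, with log2 fold changes of 3.13 ± 0.48 (adjusted p = 0.000849) and 4.05 ± 0.48 (adjusted p = 0.000268). As a ratio of reads per depth, Tbxt 48 h cells stood at 98.1 times the NMP level (counting interval 26.7 to 821) and Sox2 48 h cells at 189 times (51.1 to 1567).

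At the 5′ end, levels up to 48 h were low and no gene was called. Hoxd11, a gene of the forearm, the kidney and the sacral trunk, had 1.01 and 0.844 CPM in Tbxt 48 h cells and 4.80 and 3.54 CPM in Sox2 48 h cells, against 0.518, 0.482 and 0.755 CPM in NMPs. Neither fold change was called (0.29 ± 0.58, adjusted p = 0.782, and 1.70 ± 0.58, adjusted p = 0.11), although the Sox2 48 h libraries lay above the others, at 6.91 times the NMP level in reads per depth (counting interval 3.43 to 13.2). Hoxd12, a gene of the digits, was at 0 in all 7 libraries of these 3 groups. Hoxd13, the last gene of the cluster, which shapes digits and genitalia, had 2.43 and 1.52 CPM in Tbxt 48 h cells and 2.27 and 3.20 CPM in Sox2 48 h cells, against 0.778, 1.13 and 1.16 CPM in NMPs, with no call (adjusted p = 0.811 and 0.772).

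Several of the 48 h calls were lost when 1 library was left out, while their fold changes stayed of like size. For Hoxd8 in Sox2 48 h cells the log2 fold change was then 2.35 to 2.75, against 2.55 with all libraries. The calls of Hoxd10 in both populations and of Hoxd3 in Tbxt 48 h cells held whichever library was left out. In Sox2 48 h cells, Hoxd1 lost its call without NMP library 1 (adjusted p = 0.0533), NMP library 3 (0.0521) or Sox2 48 h library 1 (0.0947) or 2 (0.127). Hoxd3 lost it without Sox2 48 h library 2 (0.0641), and Hoxd8 without any one NMP or Sox2 48 h library (0.0516 to 0.131). In Tbxt 48 h cells, Hoxd8 lost its call without library 2 of that group (0.0587). Hoxd1 did so without NMP library 1 (0.0921) or 3 (0.069) or Tbxt 48 h library 1 (0.07) or 2 (0.216), and Hoxd9 without any one NMP or Tbxt 48 h library (0.0628 to 0.135). Other libraries widened the shared spread: without Tbxt 7 d library 1, Hoxd4 was called in Tbxt 48 h cells (adjusted p = 0.000728) and in Sox2 48 h cells (0.00162), and Hoxd11 in Sox2 48 h cells (0.00298). Hoxd11 was also called in Sox2 48 h cells without Tbxt 7 d library 2 (0.0476). Hoxd9 was called there without FGF Sox2+ library 1 or 2, at an unchanged estimate of 1.89. Either fit drops the same gap between those libraries (5.31 against 0 CPM) from the shared spread, so these are 1 result.

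The Tbxt 48 h and Sox2 48 h cells, sorted by opposite reporters, were then set against each other. None of the 9 HoxD genes was called, where 3.90% of tested genes were (2.05% higher and 1.85% lower), and at an unadjusted p under 0.05 only Hoxd11 passed. The largest differences were at Hoxd11, with a log2 fold change of -1.41 (95% interval -2.81 to -0.01), and at Hoxd10, with -0.92 (-2.06 to 0.22), both towards lower values in Tbxt 48 h cells, whose libraries lay below those of Sox2 48 h cells for both genes. Without Tbxt 7 d library 1 both were called (adjusted p = 0.025 for Hoxd11 and 0.0493 for Hoxd10). For Hoxd1 to Hoxd9 the estimates lay between -0.33 and 0.47, with intervals as wide as -1.77 to 1.89 at Hoxd4, so changes of that size were not detectable.

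**Figure D2:**
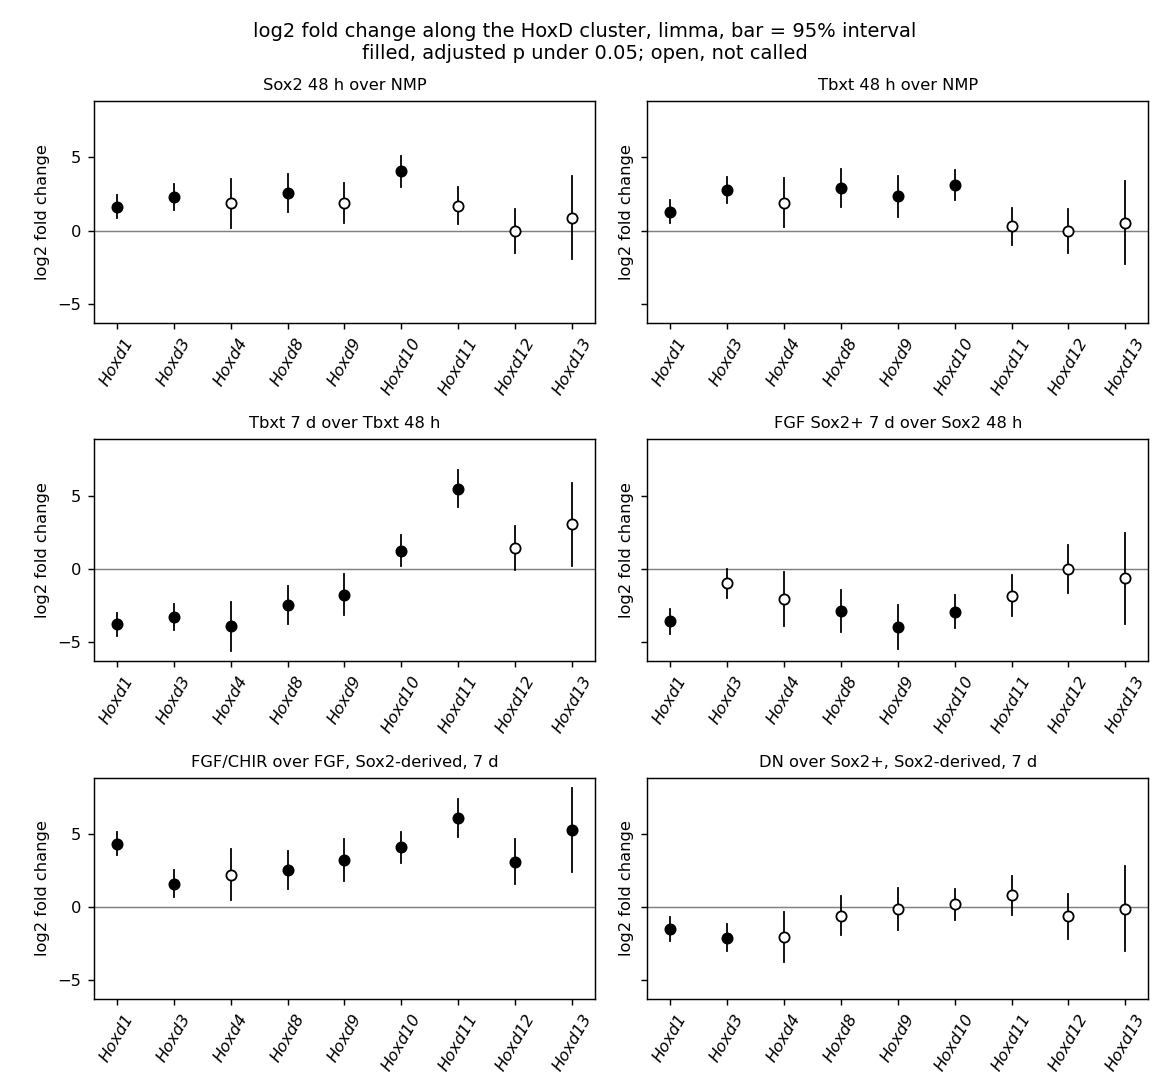
Log2 fold change of each HoxD gene on the log2(CPM + 1) scale (y axis) along the cluster (x axis) in 6 comparisons, with 95% intervals from limma; filled points have an adjusted p under 0.05. In 48 h cells over NMPs the points lie at or above 0, in Tbxt 7 d over Tbxt 48 h they run from -3.78 at Hoxd1 to 5.49 at Hoxd11, and in FGF/CHIR over FGF all 9 lie above 0.

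Between 48 h and 7 d in FGF/CHIR, the Tbxt-derived cells changed in opposite directions along the cluster. Hoxd1, Hoxd3, Hoxd4, Hoxd8 and Hoxd9 were lower at 7 d (5 of 9, where 23.5% of tested genes were lower), and Hoxd10 and Hoxd11 were higher (2 of 9, where 30.7% were higher). In all, 7 of 9 were called, where 54.2% of tested genes were. From Hoxd4 to Hoxd11 each estimate lay above that of the gene before it.

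Hoxd1 had 1.75, 0.792 and 0.790 CPM in Tbxt 7 d cells, against 24.8 and 30.0 CPM in Tbxt 48 h cells (log2 fold change -3.78 ± 0.36, adjusted p = 3.12e-06). Hoxd3 had 3.06, 0.297 and 0.395 CPM in Tbxt 7 d cells, against 19.99 and 15.7 CPM in Tbxt 48 h cells (-3.27 ± 0.42, adjusted p = 3.28e-05). Hoxd4 had 26.8, 3.76 and 2.90 CPM in Tbxt 7 d cells, against 135 and 106 CPM in Tbxt 48 h cells (-3.91 ± 0.74, adjusted p = 0.00167). For these 3 genes the highest 7 d library lay well below the lowest 48 h library. Hoxd8 had 14.8, 3.37 and 2.11 CPM in Tbxt 7 d cells, against 33.5 and 31.4 CPM in Tbxt 48 h cells (-2.48 ± 0.58, adjusted p = 0.00385). Hoxd9 had 24.7, 12.3 and 10.5 CPM in Tbxt 7 d cells, against 67.7 and 40.5 CPM in Tbxt 48 h cells (-1.76 ± 0.63, adjusted p = 0.0352). Hoxd9 kept apart too, but lost its call under 9 of 19 alternatives, among them leaving out Tbxt 7 d library 2 (0.0829) or 3 (0.0968), either Tbxt 48 h library (0.194 and 0.0642) or any NMP library (0.0503 to 0.0569).

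Hoxd10 had 55.1, 12.2 and 13.96 CPM in Tbxt 7 d cells, against 9.47 and 7.43 CPM in Tbxt 48 h cells (1.25 ± 0.48, adjusted p = 0.0428). Its call was held by 5 of 19 alternatives, and without Tbxt 7 d library 1 the log2 fold change was 0.58 (adjusted p = 0.0726). Without any one library of the other replicated groups the adjusted p was 0.0558 to 0.196. Hoxd11 had 239.7, 39.7 and 64.8 CPM in Tbxt 7 d cells, against 1.01 and 0.844 CPM in Tbxt 48 h cells (5.49 ± 0.58, adjusted p = 1.5e-05). This rise held under all 19 alternatives, with log2 fold changes of 4.19 to 6.18. Hoxd12 had 9.32, 0.198 and 0.527 CPM in Tbxt 7 d cells, against 0 in both Tbxt 48 h libraries, and only the first of these values lies above the floor. Hoxd12 was not called (adjusted p = 0.104), but was without Tbxt 7 d library 2 (0.0286). It passed the filter only through FGF/CHIR Sox2+ and Tbxt 7 d library 1, so that call rests on library 1 and is no separate support. Hoxd13 had 229, 4.55 and 10.3 CPM in Tbxt 7 d cells, against 2.43 and 1.52 CPM in Tbxt 48 h cells. Its groups did not overlap, and the log2 fold change of 3.05 ± 1.25 missed the call (adjusted p = 0.0656), with the 7 d libraries spread from 4.55 to 229 CPM. Without library 1 it was 1.43 (adjusted p = 0.00861), without library 2 4.12 (0.0117) and without library 3 3.61 (0.0469).

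**Figure D3:**
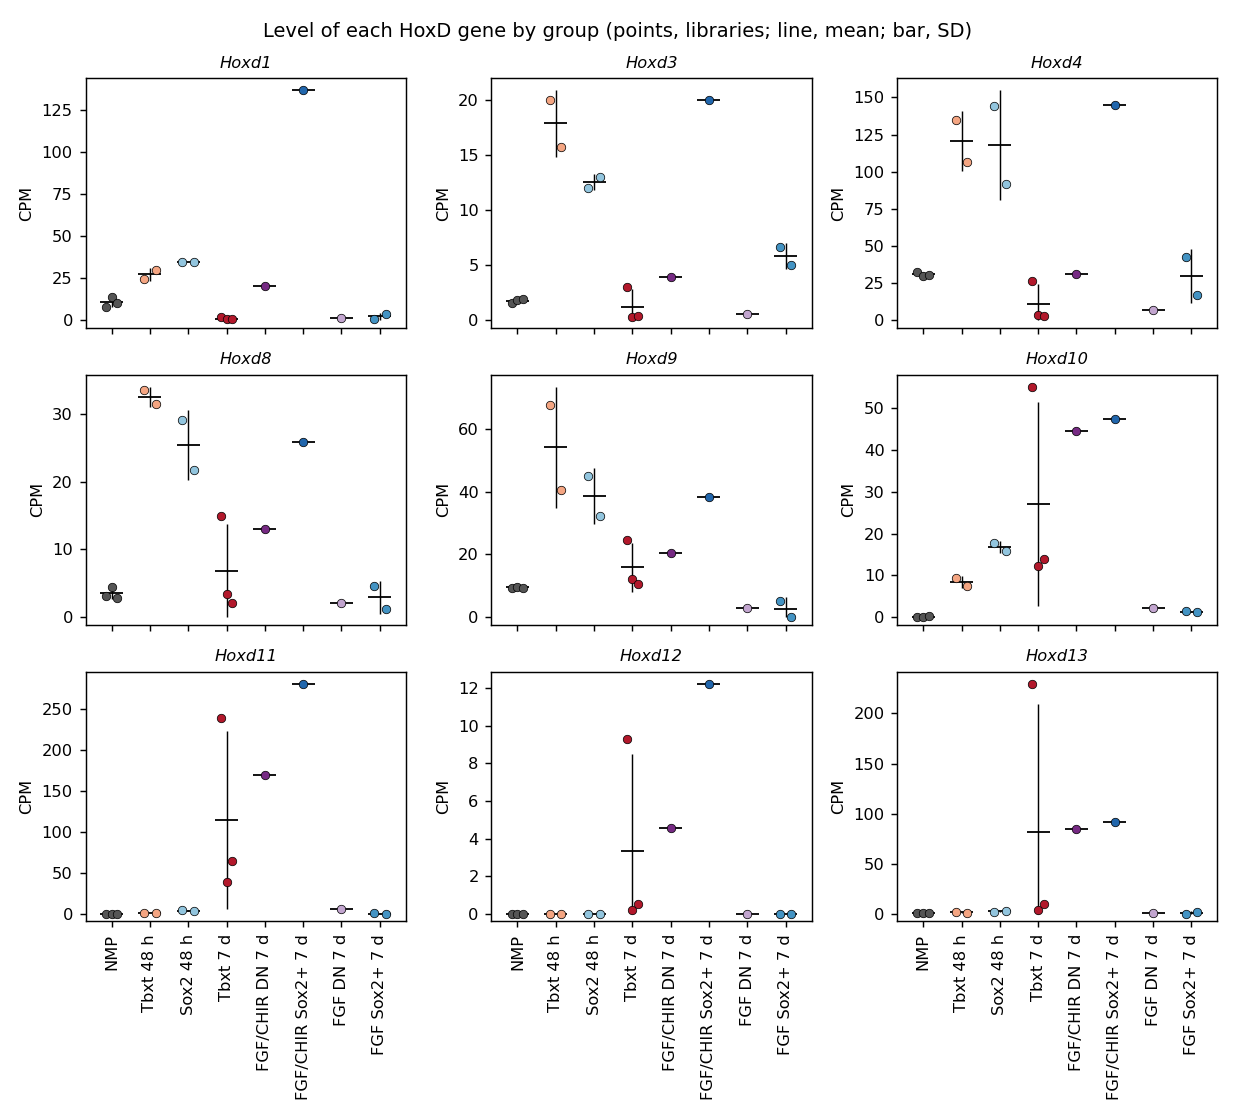
Level of each HoxD gene in CPM (y axis, own scale in each panel, linear) by group (x axis), with a point per library, a line at the mean and a bar of 1 SD where a group has more than 1 library. For Hoxd1 to Hoxd9 every Tbxt 7 d, FGF DN and FGF Sox2+ library lies below every 48 h library, and in the panels of Hoxd10 to Hoxd13 a single Tbxt 7 d library lies above the other two.

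The Tbxt 7 d libraries differed among themselves along the HoxD cluster. Library 1 was over 1 log2 unit above the mean of libraries 2 and 3 for 8 of the 9 HoxD genes, while 6.21% of tested genes were that much higher and 3.14% that much lower in library 1. Hoxd13 in library 1 stood 22.3 times above the higher of the other libraries, Hoxd4 7.12 times, Hoxd8 4.41 times, Hoxd10 3.95 times, Hoxd11 3.70 times and Hoxd9 2.02 times. Hoxd1, the gene not over 1 log2 unit, had 6 reads in library 1, against 4 and 3 in libraries 2 and 3. For Hoxd12 and Hoxd3 no fold is given, since libraries 2 and 3 were under the floor of 3 reads, and library 1 had 9.32 and 3.06 CPM. The gap went on past Hoxd13 into Evx2, a homeobox gene next to it, with 6.99, 0 and 0 CPM in libraries 1, 2 and 3. It also took in Lnpk, a gene of the endoplasmic reticulum beyond Evx2, with 68.7, 32.9 and 30.0 CPM. It did not reach Atp5mc3, the next gene, with 696, 801 and 644 CPM in libraries 1, 2 and 3. Nor did it reach Mtx2, the gene beyond Hoxd1, with 136, 129 and 124 CPM. Farther out the libraries differed again. Nfe2l2, on the Mtx2 side, had 57.1, 29.9 and 28.7 CPM, and Chn1, on the Lnpk side, had 39.7, 83.5 and 74.5 CPM. Hnrnpa3 (180, 165 and 178 CPM), Agps (64.3, 62.2 and 61.1 CPM) and Wipf1 (49.5, 43.6 and 47.7 CPM) lay closer together. Such gaps are therefore not confined to the stretch from Hoxd3 to Lnpk. In the HoxA cluster, Hoxa13 was also highest in library 1 (89.4, 5.74 and 8.16 CPM). Hoxa10 had 277, 264 and 240.2 CPM, and Hoxa11 was lowest in library 1 (35.7, 92.3 and 87.0 CPM). The mesenchyme markers summed to 8102, 6575 and 7888 CPM and the neuron markers to 38.7, 147 and 114 CPM. Their part in the gap was not tested.

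**Figure D4:**
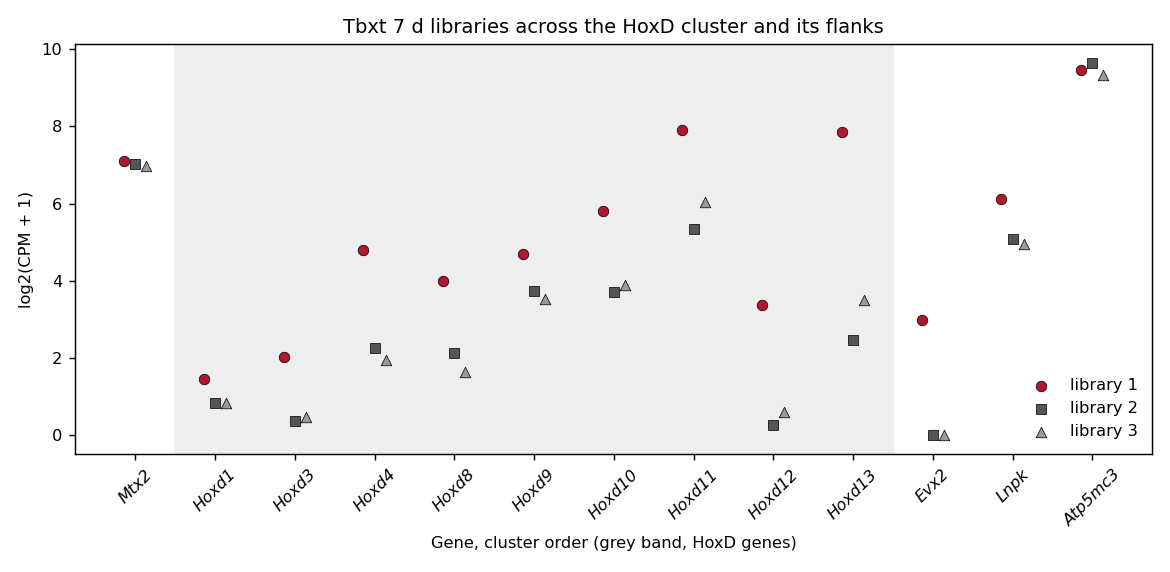
Level as log2(CPM + 1) (y axis) of the HoxD genes (grey band) and of the genes on either side (x axis, cluster order) in the 3 Tbxt 7 d libraries. Library 1 lies above libraries 2 and 3 from Hoxd1 through Lnpk, though Hoxd1 had only 6 reads in library 1 against 4 and 3. The 3 libraries lie together at Mtx2 and Atp5mc3. Genes farther out are not drawn.

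In Sox2-derived cells at 7 d, more HoxD genes were called between media than between sorted gates. With both gates averaged, 8 of the 9 HoxD genes were higher in FGF/CHIR than in FGF alone, where 5.94% of tested genes were higher, and none was lower, where 7.86% were (13.8% called in all). Hoxd4 was the exception (log2 fold change 2.23 ± 0.76, adjusted p = 0.0875), and it was called without Tbxt 7 d library 1 (0.000334). The median log2 fold change of the 9 genes was 3.22, beside -0.03 over all tested genes. Each FGF/CHIR group has 1 library, so medium and library cannot be told apart within a gate.

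Hoxd11 had the largest estimate of the gate average, with 169 CPM in FGF/CHIR DN and 281 CPM in FGF/CHIR Sox2+, against 6.29 CPM in FGF DN and 1.06 and 0 CPM in FGF Sox2+ (6.08 ± 0.60, adjusted p = 9.13e-05). Hoxd13 had 84.6 CPM in FGF/CHIR DN and 91.6 CPM in FGF/CHIR Sox2+, against 1.24 CPM in FGF DN and 0.637 and 2.50 CPM in FGF Sox2+ (5.26 ± 1.28, adjusted p = 0.0256). Hoxd10 had 44.6 and 47.4 CPM in the FGF/CHIR DN and Sox2+ libraries, against 2.27 CPM in FGF DN and 1.49 and 1.25 CPM in FGF Sox2+ (4.08 ± 0.49, adjusted p = 0.000197). Among DN cells alone the estimate was larger at Hoxd13 (5.26) than at Hoxd11 (4.55). For all 3 genes both gates of FGF/CHIR exceeded every FGF library. Hoxd12 had 4.57 CPM in FGF/CHIR DN and 12.2 CPM in FGF/CHIR Sox2+, and was at 0 in the 3 FGF libraries. That is at least 7.38-fold higher among DN cells and at least 3.26-fold higher among Sox2+ cells, against a floor of 3 reads in the shallowest FGF library of each gate. It was called as well (adjusted p = 0.0119), though its fitted fold change depends on the pseudocount. Hoxd12 passed the filter of 5 CPM in 2 libraries only through FGF/CHIR Sox2+ and Tbxt 7 d library 1 (9.32 CPM). Its high group thus let it into the test, and its call, here and among Sox2+ cells alone, is no separate support. Hoxd13 passed only through libraries kept 7 d in FGF/CHIR, among them Tbxt 7 d libraries 1 and 3.

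Among the genes nearer the 3′ end, Hoxd1 had 20.3 CPM in FGF/CHIR DN and 137 CPM in FGF/CHIR Sox2+, against 1.44 CPM in FGF DN and 0.849 and 3.76 CPM in FGF Sox2+ (4.33 ± 0.37, adjusted p = 1.91e-05). Hoxd9 had 20.6 and 38.2 CPM in the FGF/CHIR DN and Sox2+ libraries, against 2.89 CPM in FGF DN and 5.31 and 0 CPM in FGF Sox2+ (3.22 ± 0.64, adjusted p = 0.00817). Hoxd8 had 13.03 and 25.8 CPM in FGF/CHIR DN and Sox2+, against 2.06 CPM in FGF DN and 4.67 and 1.25 CPM in FGF Sox2+ (2.55 ± 0.60, adjusted p = 0.0161). Hoxd3 moved least among the 8 called genes, with 3.89 CPM in FGF/CHIR DN and 19.99 CPM in FGF/CHIR Sox2+, against 0.619 CPM in FGF DN and 6.69 and 5.01 CPM in FGF Sox2+ (1.61 ± 0.43, adjusted p = 0.0243). In that gene FGF/CHIR DN lay below the FGF Sox2+ libraries. Hoxd4 had 31.4 CPM in FGF/CHIR DN and 145 CPM in FGF/CHIR Sox2+, against 6.71 CPM in FGF DN and 42.8 and 16.9 CPM in FGF Sox2+, and its groups overlapped when gates were pooled.

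Gate by gate, 6 of 9 genes were called among Sox2+ cells (Hoxd1, Hoxd8, Hoxd9, Hoxd10, Hoxd11 and Hoxd12) and 3 among DN cells (Hoxd1, Hoxd10 and Hoxd11), each with every estimate above 0. In the same single-gate comparisons, 3.36% of tested genes were higher among Sox2+ cells and 3.98% among DN cells. The DN comparison rests on 1 library a side, and the FGF DN library carried the most endoderm marker RNA (1164 CPM, against 187 CPM in FGF/CHIR DN). All 6 endoderm markers were over the floor in FGF DN, and 5 of 6 in FGF/CHIR DN with Afp at 0. Their part in the HoxD difference was not tested. Among Sox2+ cells the endoderm markers were at 4.01 CPM in FGF/CHIR and 4.46 and 15.02 CPM in FGF. There the neural progenitor markers summed to 448 CPM in FGF/CHIR, against 821 and 1358 CPM in FGF. The neuron markers summed to 36.8 CPM in FGF/CHIR, against 187 and 659.8 CPM in FGF, and the pluripotency markers to 4.57 CPM in FGF/CHIR with Nanog at 0, against 158 and 45.1 CPM in FGF. Across both gates 4 of 4 pluripotency markers were lower in FGF/CHIR, where 7.86% of tested genes were. Of 7 tested neural progenitor markers 5 were lower and 1 higher, with a median log2 fold change of -3.50. Their sum is no clear mark of the cell type. It was 463 to 540 CPM in Tbxt 7 d cells too, with 3 to 5 of 8 markers over the floor. The part of these shifts was not tested.

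Between the gates, with both media averaged, Hoxd1 (log2 fold change -1.49 ± 0.37, adjusted p = 0.0189) and Hoxd3 (-2.09 ± 0.43, adjusted p = 0.0063) were lower in DN than in Sox2+ cells, 2 of 9 where 6.99% of tested genes were lower. No HoxD gene was higher, where 7.12% of tested genes were (14.1% called in all). The Hoxd1 difference was -2.70 in FGF/CHIR (adjusted p = 0.0188) and -0.28 in FGF alone (adjusted p = 0.759), a contrast between media that was not tested, and the Hoxd3 difference was of like size in both (-2.10 and -2.07) with a call in FGF alone (0.0241). Hoxd4 followed with -2.01 ± 0.76 (adjusted p = 0.114) and was called without Tbxt 7 d library 1 (0.000736). From Hoxd8 to Hoxd13 the estimates lay between -0.62 and 0.81, and the 95% interval at Hoxd13, -3.002 to 2.79, leaves wide room.

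The promoters of the 9 genes were searched because 8 of them were higher with the WNT activator. The window was the 250 bases before each RefSeq start (GRCm38.p6, the build of the sequences, not of the counts), and RefSeq gave 10 windows for the 9 genes, all on the + strand of chromosome 2. The motifs, read on both strands, were CTTTGAT, the core letters bound by TCF/LEF, the factors of WNT signalling, TTTATGG, bound by CDX, the caudal homeodomain factors, and the direct repeat of AGGTCA with 5 bases between that retinoic acid receptors bind. They do not overlap each other in these windows. The Hoxd8 window (chr2:74704365-74704614) held CTTTGAT at 2 places, as 27 of 32851 mouse windows did (0.0822%; at least 1 place in 3.21%). The Hoxd4 window (chr2:74721728-74721977) held TTTATGG once, as 2.43% of all windows did. No other HoxD window held any of the 3, which says only that these letters are not there. The Hoxd13 window (chr2:74667975-74668224) is given beside them as the member at the other end of the cluster. A match is a description and not a bound site. The motifs were chosen with the sequences in view, so the shares above do not measure how unexpected the matches are. Hoxd11, Hoxd13 and Hoxd1, without a match, had the largest FGF/CHIR over FGF estimates (6.08, 5.26 and 4.33), beside 2.55 for Hoxd8. Capitals mark the matches.
Hoxd8: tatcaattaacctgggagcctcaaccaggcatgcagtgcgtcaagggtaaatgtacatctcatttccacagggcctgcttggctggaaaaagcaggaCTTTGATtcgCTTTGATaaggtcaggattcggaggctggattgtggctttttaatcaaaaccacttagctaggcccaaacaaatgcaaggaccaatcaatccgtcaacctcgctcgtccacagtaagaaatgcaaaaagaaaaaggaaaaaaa
Hoxd4: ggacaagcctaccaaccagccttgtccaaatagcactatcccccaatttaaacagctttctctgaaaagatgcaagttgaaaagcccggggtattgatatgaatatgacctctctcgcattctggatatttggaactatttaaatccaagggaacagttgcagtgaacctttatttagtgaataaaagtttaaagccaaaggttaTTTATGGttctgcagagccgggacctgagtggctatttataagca
Hoxd13: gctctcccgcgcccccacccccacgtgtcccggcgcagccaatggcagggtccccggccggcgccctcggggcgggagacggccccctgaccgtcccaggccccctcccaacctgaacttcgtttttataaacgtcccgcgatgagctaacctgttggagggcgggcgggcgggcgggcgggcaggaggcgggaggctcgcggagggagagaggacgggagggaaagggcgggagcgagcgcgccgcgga
The Hoxd13 window had the highest GC content of the 10 (74.4%) and the Hoxd4 window the lowest (40.4%), beside a median of 52.4% over all windows; that of Hoxd8 was 44.4%.

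Measured against Sox2 48 h cells, the earlier stage with the same gate, the FGF Sox2+ cells at 7 d had lower Hoxd1, Hoxd8, Hoxd9 and Hoxd10 (4 of 9, where 6.51% of tested genes were lower) and no higher HoxD gene, where 18.2% were higher (24.7% called in all). Time and medium change together here. Hoxd1 had 0.849 and 3.76 CPM in FGF Sox2+ cells, against 34.6 and 34.7 CPM in Sox2 48 h cells (-3.59 ± 0.40, adjusted p = 6.27e-05). Hoxd9 had 5.31 and 0 CPM in FGF Sox2+ cells, against 44.9 and 32.2 CPM in Sox2 48 h cells (-3.96 ± 0.69, adjusted p = 0.00244). Hoxd10 had 1.49 and 1.25 CPM in FGF Sox2+ cells, against 17.8 and 15.8 CPM in Sox2 48 h cells (-2.91 ± 0.52, adjusted p = 0.00197). Hoxd8 had 4.67 and 1.25 CPM in FGF Sox2+ cells, against 29.0 and 21.7 CPM in Sox2 48 h cells (-2.87 ± 0.64, adjusted p = 0.00803), and lost its call without the shallow FGF Sox2+ library 2 (-2.20, adjusted p = 0.0715). Ranges were apart for all 4. Hoxd3 (-0.99, adjusted p = 0.133), Hoxd4 (-2.05, adjusted p = 0.0977) and Hoxd11 (-1.84, adjusted p = 0.056) were not called, but each was without Tbxt 7 d library 1 (0.0147, 0.000685 and 0.00149), and Hoxd11 also without Tbxt 7 d library 2 (0.023).

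The FGF/CHIR Sox2+ library, in which gate and medium match the Sox2 48 h cells, held Hoxd8 and Hoxd9 at about their 48 h level, and the genes towards both ends stood above it, apart from Hoxd4. In ratios of reads per depth, with intervals that cover counting only and no replicate check on the 7 d side, it stood at 1.02 times the Sox2 48 h level for Hoxd8 (0.849 to 1.24), 0.999 times for Hoxd9 (0.858 to 1.16) and 1.24 times for Hoxd4 (1.14 to 1.35). The interval at Hoxd4 leaves out the spread between libraries, and its 145 CPM lies within 1 SD of the Sox2 48 h mean (118 ± 37.1 CPM, n = 2). Hoxd1 stood at 3.96 times (3.48 to 4.51), Hoxd3 at 1.60 times (1.26 to 2.06) and Hoxd10 at 2.83 times (2.35 to 3.46). The 5′ genes stood furthest above, Hoxd11 at 68.0 times (49.3 to 99.9) and Hoxd13 at 33.2 times (21.98 to 52.6). Hoxd12 was at least 16.2-fold higher, against the floor of 3 reads in the shallower Sox2 48 h library.

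The change from 48 h to 7 d differed between Tbxt-derived cells and Sox2-derived FGF Sox2+ cells at 3 of the 9 HoxD genes. That share is near the one of all tested genes. The difference of the log2 changes, Tbxt-derived minus Sox2-derived, was 7.32 ± 0.86 at Hoxd11 (adjusted p = 0.000129) and 4.15 ± 0.71 at Hoxd10 (adjusted p = 0.00103), 2 of 9 where 14.2% of tested genes had a higher difference. It was -2.28 ± 0.62 at Hoxd3 (adjusted p = 0.0138), 1 of 9 where 19.4% had a lower one (33.6% called in all). Source, medium and gate differ together in this contrast. Without Tbxt 7 d library 1, Hoxd4 (-2.76, adjusted p = 0.000686) and Hoxd13 (2.06, adjusted p = 0.012) were called as well. Hoxd13 was also called without Tbxt 7 d library 2 (4.75, adjusted p = 0.0457). The Hoxd9 difference was 2.20 with all libraries and 0.87 without FGF Sox2+ library 2. It was 3.53 without FGF Sox2+ library 1, which leaves that group only the shallow library 2, where Hoxd9 was at 0.

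At 7 d itself, Tbxt 7 d cells had higher Hoxd9 (2.65 ± 0.63, adjusted p = 0.00546), Hoxd10 (3.23 ± 0.48, adjusted p = 0.000153) and Hoxd11 (5.91 ± 0.58, adjusted p = 1.17e-05) than FGF Sox2+ cells, 3 of 9 where 21.1% of tested genes were higher. Hoxd3 was lower (-1.81 ± 0.42, adjusted p = 0.00325), 1 of 9 where 26.5% were lower (47.6% called in all). These 4 calls held under every alternative run. Hoxd13 came close (3.35 ± 1.25, adjusted p = 0.0525) and was called without Tbxt 7 d library 1 (1.72, adjusted p = 0.00309), 2 (4.41, 0.0101) or 3 (3.90, 0.0403). Without Tbxt 7 d library 1, Hoxd4 was called too (-2.70, adjusted p = 2.74e-05). Hoxd12 was called without Tbxt 7 d library 2 (1.99, adjusted p = 0.0327). It had passed the filter through FGF/CHIR Sox2+ and Tbxt 7 d library 1, the only Tbxt 7 d library with Hoxd12 above the floor. That call is therefore no separate support. Hoxd1 was called without FGF Sox2+ library 1 (-1.20, adjusted p = 0.0152) and turned to 0.16 without library 2.

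Where medium and gate match, in Tbxt 7 d cells against FGF/CHIR DN cells, all 9 estimates were below 0 and 1 was called, Hoxd1 at -3.37 ± 0.46 (adjusted p = 0.000469), where 8.86% of tested genes were lower and 7.88% higher (16.7% called in all). Hoxd1 had 1.75, 0.792 and 0.790 CPM in Tbxt 7 d cells, against 20.3 CPM in FGF/CHIR DN cells. For Hoxd10, Hoxd11, Hoxd12 and Hoxd13, Tbxt 7 d library 1 lay above the FGF/CHIR DN library and libraries 2 and 3 below it. Without library 1, 8 of the 9 genes were called lower, with Hoxd13 at -3.44 (adjusted p = 0.000275), Hoxd4 at -2.91 (0.00031), Hoxd12 at -2.04 (0.00228), Hoxd8 at -1.93 (0.00767), Hoxd3 at -1.86 (0.00128), Hoxd11 at -1.72 (0.0098) and Hoxd10 at -1.70 (0.00172), so this count turns on 1 library. Without it, 13.6% of tested genes were called lower and 11.1% higher. Hoxd12 passed the filter of 5 CPM in 2 libraries only through FGF/CHIR Sox2+ and the left-out library 1. Its place among the 8 is therefore no separate support. The FGF/CHIR DN group also has 1 library, and it carried endoderm markers at 187 CPM, against 1.98 to 9.32 CPM in Tbxt 7 d cells; the part of that difference was not tested.

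Over the 8 groups, each gene had its own order of levels. Hoxd1 was highest in FGF/CHIR Sox2+ (137 CPM), then Sox2 48 h (34.7 ± 0.115 CPM, SD, n = 2), Tbxt 48 h (27.4 ± 3.70 CPM, n = 2), FGF/CHIR DN (20.3 CPM) and NMP (10.7 ± 3.06 CPM, n = 3), with the neighbours in that stretch apart by more than their SD. FGF Sox2+, FGF DN and Tbxt 7 d closed it within each other's spread. Hoxd3 and Hoxd4 shared their top 3 groups, FGF/CHIR Sox2+, Tbxt 48 h and Sox2 48 h, and for Hoxd4 the 48 h groups did not differ beyond its SD (121 ± 20.02 and 118 ± 37.1 CPM, n = 2 each). Hoxd8 and Hoxd9 had their highest mean in Tbxt 48 h cells (32.5 ± 1.498 and 54.1 ± 19.3 CPM, n = 2), and for Hoxd9 it did not differ beyond its SD from Sox2 48 h cells (38.6 ± 8.98 CPM, n = 2), whose range overlapped. Hoxd10, Hoxd11, Hoxd12 and Hoxd13 shared the order FGF/CHIR Sox2+, FGF/CHIR DN, Tbxt 7 d at the top. Tbxt 7 d lay within its SD of FGF/CHIR DN for each of the 4, since that SD was about as large as its mean or larger (114.7 ± 108.9 CPM for Hoxd11 and 81.4 ± 128 CPM for Hoxd13, n = 3).

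Neighbours in the cluster tended to follow each other over the 8 group means of log2(CPM + 1), which share libraries and include 3 groups of 1 library. Pearson's r was 0.821 for Hoxd1 and Hoxd3, 0.955 for Hoxd3 and Hoxd4, 0.853 for Hoxd4 and Hoxd8, 0.934 for Hoxd8 and Hoxd9, 0.674 for Hoxd9 and Hoxd10, 0.843 for Hoxd10 and Hoxd11, 0.926 for Hoxd11 and Hoxd12 and 0.962 for Hoxd12 and Hoxd13. The lowest of these values thus fell between Hoxd9 and Hoxd10. Some genes farther apart were as alike: r was 0.907 for Hoxd1 and Hoxd4, 0.860 for Hoxd1 and Hoxd8, and 0.963 for Hoxd11 and Hoxd13. Across the cluster it fell to -0.028 for Hoxd4 and Hoxd11. Of all tested genes outside the cluster, those most alike over the same 8 means were Shmt2 (0.9751), Haglr (0.970) and Gtsf2 (0.967) for Hoxd1, Gm28230 (0.990), Prdm4 (0.976) and Mtx2 (0.964) for Hoxd3, and Prkar2a (0.994), Mtx2 (0.991) and Pdap1 (0.982) for Hoxd4. For Hoxd8 they were Aif1l (0.972), Cdc25a (0.931) and E2f6 (0.929), for Hoxd9 Cwf19l1 (0.959), Ntmt1 (0.948) and Bin1 (0.942), and for Hoxd10 Usp29 (0.954), Cpvl (0.943) and Galnt4 (0.942). For Hoxd11 they were Gm28309 (0.987), Tmod1 (0.982) and Ccbe1 (0.969), for Hoxd12 Gm11538 (0.976), Gm28309 (0.972) and Hoxc11 (0.958), and for Hoxd13 Gm28309 (0.986), Gm11538 (0.985) and Ccbe1 (0.982).

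Some of these likenesses share reads. In the GENCODE M21 annotation, Gm28309 overlaps exons of Hoxd10 and Hoxd11 and Gm28230 those of Hoxd3 and Hoxd4, on the same strand. Hoxd3 and Hoxd4, whose r is given above, also overlap each other on the same strand. The values of these 4 members were whole reads in only 8 of 13 (Hoxd10), 7 of 14 (Hoxd11), 6 of 15 (Hoxd3) and 8 of 15 (Hoxd4) of the libraries where they were above 0, within 0.01 reads, and those of the other 5 members were whole throughout. Levels of these 4 are therefore uncertain where reads could be divided. Gm28309 had 29.6, 6.34 and 8.69 CPM in Tbxt 7 d cells, 25.9 CPM in FGF/CHIR DN and 56.9 CPM in FGF/CHIR Sox2+, and at most 1.03 CPM elsewhere. With the CPM of the overlapping models added to the members, the only HoxD call to change in any comparison was Hoxd11 in FGF Sox2+ against Sox2 48 h cells, which became called (-2.09, adjusted p = 0.0333). Hoxd3 and Hoxd4 also overlap the antisense Hoxd3os1, and Hoxd3 overlaps Haglr; the sources do not say whether counting used the strand.

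Transcripts and genes around the cluster moved less uniformly. Haglr, an antisense RNA of the Hoxd1 end, was 2.29 CPM in FGF/CHIR DN and 19.6 CPM in FGF/CHIR Sox2+, against 0.206 CPM in FGF DN and 0 and 1.25 CPM in FGF Sox2+, and was higher in FGF/CHIR (2.61 ± 0.41, adjusted p = 0.00117). Hoxd3os1, an antisense RNA of Hoxd3, was higher in FGF/CHIR as well (3.26 ± 0.59, adjusted p = 0.00386), in Tbxt 48 h over NMP (2.37 ± 0.57, adjusted p = 0.0148) and in Sox2 48 h over NMP (2.46 ± 0.57, adjusted p = 0.0224). Mtx2, a mitochondrial import gene on the Hoxd1 side, was higher in Tbxt 48 h cells (0.66 ± 0.13, adjusted p = 0.00413) and Sox2 48 h cells (0.61 ± 0.13, adjusted p = 0.0111) than in NMPs, lower in Tbxt 7 d than in Tbxt 48 h cells (-1.11 ± 0.13, adjusted p = 1.53e-05), and higher in FGF/CHIR than in FGF (0.61 ± 0.13, adjusted p = 0.00858). On the Hoxd13 side, 2 of 4 tested flanking genes were higher in FGF/CHIR than in FGF, Wipf1 (1.66 ± 0.23, adjusted p = 0.000447) and Chn1 (0.98 ± 0.25, adjusted p = 0.0219). Of all tested genes, 5.94% were higher in that comparison. Mir10b was at 0 in every library, and poly-A libraries do not hold mature miRNAs.

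The other Hox clusters give the frame for these changes. In Tbxt 7 d against Tbxt 48 h cells, the HoxA, HoxB and HoxC genes of paralog groups 1 to 4 were all lower (9 of 9, median log2 fold change -2.65). Of groups 5 to 9, 8 of 12 tested were lower and 2 higher (median -1.59), and of groups 10 to 13, 3 of 7 were higher and none lower (median 1.22), beside 0.09 over all tested genes. Of all tested genes, 23.5% were lower and 30.7% higher. In FGF/CHIR against FGF, groups 10 to 13 had 6 of 7 higher (median 3.18) and groups 5 to 9 had 11 of 12 higher (median 1.75). Groups 1 to 4 had 2 higher and 2 lower of 9 (median -0.15), beside -0.03 over all tested genes. Of the HoxD genes in those groups, Hoxd1 and Hoxd3 were higher. In this comparison 5.94% of all tested genes were higher and 7.86% lower. In DN against Sox2+ cells, 12 of 12 genes of groups 5 to 9 (median -1.70) and 7 of 9 of groups 1 to 4 (median -1.92) were lower, where 6.99% of tested genes were (median -0.10), and Hoxd8 and Hoxd9 of the same groups were not called.

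Of 11 genes that feed the Hox clusters, among them the CDX, WNT, FGF and retinoid genes, 7 were lower and 3 higher in Tbxt 7 d than in Tbxt 48 h cells, where 23.5% of tested genes were lower and 30.7% higher. Cdx2, a caudal factor, changed by -7.83 (adjusted p = 4.2e-11) and Wnt3a, a WNT ligand of the tail bud, by -5.07 (adjusted p = 3.68e-08). In FGF/CHIR against FGF, 5 were higher and 4 lower, where 5.94% and 7.86% of tested genes were. Gdf11, a secreted factor that starts the posterior Hox genes in the trunk, was higher in FGF/CHIR (1.03, adjusted p = 0.00456), and Cdx2 was not called in the gate average (-0.29, adjusted p = 0.369). That average joins opposite directions: Cdx2 had 8.69 CPM in FGF/CHIR DN, against 42.9 CPM in FGF DN, and 294 CPM in FGF/CHIR Sox2+, against 103 and 90.1 CPM in FGF Sox2+. Among Sox2+ cells the related Cdx1 had 31.5 CPM in FGF/CHIR, against 1.70 and 0 CPM in FGF, and Cdx4 38.2 CPM in FGF/CHIR, against 3.40 and 1.25 CPM in FGF. The Polycomb and trithorax list, genes that hold Hox clusters silent or active, had 1 of 14 higher and 1 lower in the same comparison (median -0.08), a share near the 13.8% of all tested genes that were called.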

How the data were processed

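Per the labels' protocols, bead-extracted RNA was primed with oligo-dT carrying UMIs and tagmented. STAR 2.7, SAMtools 1.21 and GRCm39 are named in the submitters' processing notes; for annotation, counting, strand and UMI handling the sources used here give nothing. The authors deposited CPM values for 78409 rows that sum to 1000000 per library. Rows without a gene name (21909, holding 1.10 to 1.81% of CPM) and 92 ERCC rows were left out, and 627 rows sharing 311 symbols were summed. The step of 1 read, taken from the low values, gave the depth. Only 71.1 to 78.7% of nonzero values were whole multiples of it within 0.01 reads, so no count test was run.

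limma 3.58.1 in R 4.3.3 (trend, robust, two-sided) was fitted to log2(CPM + 1) of all 15 libraries in 8 groups (7 residual degrees of freedom) for genes that reached 5 CPM in 2 libraries or more (12943, among them all 9 HoxD genes), with Benjamini-Hochberg adjustment over all tested genes in each of 10 comparisons. It was tested on simulated data first. Genes named are the 9 members, the listed noncoding and flanking genes, and the 3 tested genes most correlated with each member over the 8 group means; Cdx1, Cdx2, Cdx4, Wnt3a and Gdf11, and the genes given beside the Tbxt 7 d libraries, were chosen after their values were seen. The members and lists were chosen with earlier results of these data known, and the promoter motifs with the sequences in view. Alternatives were other pseudocounts (0.25, 4), no filter or one of 20 CPM, median-of-ratios scaling, a replicate block and leaving out each replicate; added after seeing the data were overlapping gene models, single gates or media and a crossed block. RefSeq promoters (GRCm38.p6) and GENCODE M21 gave sequences and overlaps only. Python 3.11.15, numpy 2.4.6, pandas 2.3.3, scipy 1.17.1 and matplotlib 3.10.9 were used.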

Additional observations from a re-analysis of the deposited data

Results flagged for a closer look

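The change from 48 h to 7 d differed between Tbxt-derived cells and Sox2-derived FGF Sox2+ cells at 3 HoxD genes. The test was of the difference itself in limma, adjusted over all tested genes. A count of 3 of 9 is near the 33.6% of all tested genes called in this contrast. The difference, Tbxt-derived minus Sox2-derived, was -2.28 on the log2 scale at Hoxd3, 4.15 at Hoxd10 and 7.32 at Hoxd11. Hoxd11 was higher at 7 d in all 3 Tbxt 7 d libraries than in both Tbxt 48 h libraries. In FGF Sox2+ cells it had 1.06 and 0 CPM, against 4.80 and 3.54 CPM in Sox2 48 h cells, which was not called, and 3 reads in FGF Sox2+ library 2 are worth 3.76 CPM. Medium and sorted gate differ between the lineages along with the source, and these cannot be told apart.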

How the results depend on the processing

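Of 1626 values of single HoxD genes under an alternative, 1506 kept their direction and their side of the threshold, 61 lost a call, 46 gained one and 13 changed sign. Every change of sign was in a gene without a call. In Tbxt 48 h against Sox2 48 h cells, Hoxd4 ranged from -0.26 to 0.38 without a Sox2 48 h replicate, and was -0.11 when Tbxt 48 h replicate 1 was left out. In Tbxt 7 d against FGF Sox2+ cells, Hoxd1 ranged from -1.20 to 0.16 without an FGF Sox2+ replicate. In DN against Sox2+ cells, Hoxd9 changed to 0.26 at a pseudocount of 0.25, 0.63 in FGF alone and -0.78 to 0.55 without an FGF Sox2+ replicate, Hoxd13 to -0.38 to 0.17 without one, and in FGF/CHIR alone Hoxd10 to -0.087 and Hoxd11 to -0.73. In the difference of changes, Hoxd1 changed to 0.035 at a pseudocount of 4 and to -0.87 to 0.49 without an FGF Sox2+ replicate, and Hoxd8 to -0.28 to 1.06 without one and to -0.31 without Tbxt 7 d replicate 1.

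The count of HoxD genes called in Tbxt 48 h against NMP fell to 3 of 9 at a pseudocount of 0.25 and with no filter on low values, against 5. In DN against Sox2+ it was 1 of 9 at a pseudocount of 0.25, with the filter of 20 CPM (which drops Hoxd3 and Hoxd12 from the test), in FGF/CHIR alone and in FGF alone, against 2. In FGF/CHIR against FGF it was 3 in the DN gate alone, against 8. The cause was not tested, except that fewer libraries or genes enter the single gates, single media and stricter filter. Leaving out each replicate gave 1 to 6 genes for Sox2 48 h against NMP and 2 to 6 for Tbxt 48 h against NMP. It gave 0 to 2 for Tbxt 48 h against Sox2 48 h, 3 to 7 for FGF Sox2+ against Sox2 48 h, 5 to 8 for Tbxt 7 d against Tbxt 48 h and 4 to 6 for Tbxt 7 d against FGF Sox2+. It gave 2 to 3 for DN against Sox2+, 8 to 9 for FGF/CHIR against FGF, 1 to 8 for Tbxt 7 d against FGF/CHIR DN and 3 to 5 for the difference of changes. Where this leaves a group with 1 library, that library is taken to vary like the other groups. The genes tested stayed those that passed the filter with all 15 libraries. Calls over all tested genes moved as well. Without Tbxt 7 d library 1, 6 HoxD genes were called in each 48 h comparison with NMPs. Of tested genes, 4.31% were then higher and 7.81% lower in Sox2 48 h cells, against 2.65% and 5.27% with all libraries. In Tbxt 48 h cells the shares were 10.4% and 13.4%, against 7.82% and 10.5%. The low ends are given without such shares, so they do not show HoxD calls to be less stable than others.

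Whether library numbers pair the samples could not be told. Same-numbered libraries of different groups correlated in their deviations from the group means by -0.19 to 0.48. Both pairs of NMP and Tbxt 48 h libraries were positive (0.48 and 0.46). In a group of 2 libraries the deviations mirror each other, and libraries of different numbers were not compared. With the number as a replicate block, the HoxD counts stayed within 1.5 times, Hoxd1 lost its call in Tbxt 48 h against NMP (adjusted p = 0.0582), and Hoxd4 (0.0352) and Hoxd11 (0.0382) in FGF Sox2+ against Sox2 48 h and Hoxd9 in the difference of changes (0.0382) gained one. In the 4 libraries at 48 h, crossed numbers gave 1434 called genes and the numbers as given 1003, 2 of them HoxD genes in each. Depth limits the low end: 3 reads in FGF Sox2+ replicate 2 are worth 3.76 CPM.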
